A study of Caenorhabditis elegans with 6 samples.

Results

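The genes described here encode the contractile and attachment proteins of the body wall muscle of Caenorhabditis elegans, leaving out the actins. A list of 33 gene symbols defined the set, and all 33 were found among the 20189 protein-coding genes of the deposited table. Ribosome profiling had been done on whole hermaphrodites at the L4 larval stage, in 6 libraries. The CHX group (3 libraries) came from animals kept from the egg for 3 days on plates with 500 µg/ml of cycloheximide, a drug that blocks translation elongation. The no CHX group (3 libraries) came from animals kept for 2 days on plates without the drug. Every animal of both groups was a heterozygote with rpl-36A(P55Q), a changed gene of a large-subunit ribosomal protein, over the balancer chromosome mIn1, and all were grown at 23 °C, so that a wild-type copy of the gene was also present in both groups. Drug and culture time changed together and cannot be told apart.

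Body wall muscle moves the worm through obliquely striated sarcomeres. Thick filaments of myosin around a paramyosin core pull on thin filaments of actin, tropomyosin and troponin, and troponin lets calcium switch the pull on. Thin filaments are anchored at dense bodies and thick filaments at M-lines, and integrin complexes at the base of both carry force through the basement membrane and epidermis to the cuticle.

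Of the 33 muscle genes, 20 fell with CHX and none rose, and the loss was moderate: called falls ran from 19.3% for the calponin-family gene cpn-3 to 49.8% for the troponin I gene tni-1, with a median of 31.9%. Of the 18 thick and thin filament genes 15 fell, and 5 of the 11 attachment genes did. Of the 4 giant genes none was called, although ttn-1 (-0.39) and ketn-1 (-0.27) had values within the range of called genes or close to it, with edgeR adjusted p of 0.0512 and 0.0534. The 5 genes listed for pharyngeal muscle, which holds its own myosins and troponins, were higher with CHX. That list, like the others, was chosen with earlier results of these data known. All 33 genes passed the filter on low counts, with 447 to 56695 reads over the 6 libraries. The call was made at a Benjamini-Hochberg adjusted p under 0.05 with edgeR's quasi-likelihood test over 10632 genes, of which 20.0% were called lower and 22.2% higher. No muscle gene was called higher by edgeR, DESeq2 or limma-voom, and 0 had a positive change at an unadjusted p under 0.05. The median log2 fold change (CHX over no CHX) of the 33 genes was -0.43, against 0.03 over all genes tested, and 32 of the 33 values were below 0.

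Genes with many reads were lower with CHX as a class. Levels are given as CPM, which are reads relative to library size, scaled with TMM factors. When the genes tested were divided into 10 equal bins by mean CPM, the most abundant bin had a median of -0.23 and 45.2% of its genes were called lower. Of the 22 muscle genes in that bin, 16 were called lower and the median was -0.46. Another 7 muscle genes lay in the second bin, where the median of all genes was -0.06, and 4 lay further down. Over all bins, 28 of the 33 muscle genes were below the median of their own bin, by a median of 0.22 on the log2 scale (value -0.22). Scaling that centres genes of each abundance on no change (cyclic loess, tested with limma) left 14 of the 33 genes called lower, with a median of -0.21. Of the 10632 genes tested, that scaling called 2060 lower and 2200 higher. The plot of change against abundance shows the TMM-scaled values.

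**Figure D1:**
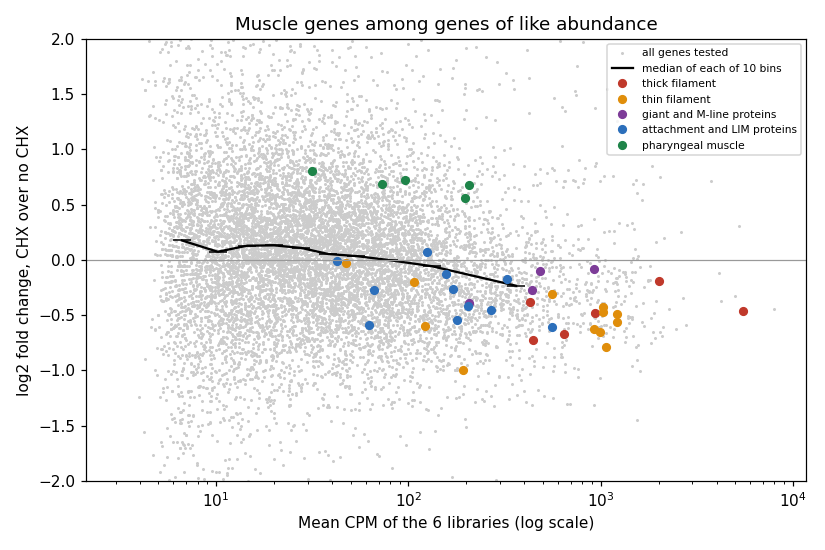
The log2 fold change of CHX over no CHX is plotted against the mean CPM of the 6 libraries (log axis), with all genes tested in grey, the median of each bin as a black line and the muscle lists in colour. The body wall genes lie mostly below the line of bin medians, the 5 pharyngeal genes lie above it, and 416 genes beyond the axis limits of -2 and 2 are not drawn.

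The libraries held 1601009 to 1901815 reads, and log2 CPM correlated at 0.970 to 0.977 for libraries of the same group, against 0.878 to 0.899 across groups. The labels do not say if replicates came from different cultures, and the p-values here rest on library-to-library spread that could be technical. Within a group, the SD of a muscle gene had a median of 7.43% of its mean with CHX and 6.66% without it. In whole animals, fewer muscle cells and less RNA or fewer ribosomes per muscle cell cannot be told apart, and footprints alone do not divide mRNA level from translation.

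Of the 6 thick filament genes, 5 (83.3%) fell, against 20.0% of all genes tested and 45.2% of the most abundant bin. The cyclic loess scaling left 2 of the 6 called, with a median of -0.20. The main myosin heavy chain gene of body wall muscle, unc-54 (WBGene00006789, WBcel235 chromosome I, 14855901 to 14863573, minus strand), had 4969, 4441 and 4378 CPM in CHX replicates 1 to 3, against 6366, 6654 and 5964 CPM in no CHX replicates 1 to 3. The groups did not overlap, as was so in this direction for 24.7% of all genes tested. In the most abundant bin, where unc-54 lies, it was so for 553 of 1064 genes. The mean was 4596 ± 325 CPM with CHX and 6328 ± 347 CPM without it (SD, n = 3 each). On the log2 scale the difference was -0.46 (SE 0.088, edgeR adjusted p = 4.2e-04). With the cyclic loess scaling the value of unc-54 was -0.08 (limma adjusted p = 0.469). The TMM-scaled value lay 0.23 below the median of its abundance bin (difference -0.23).

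The minor heavy chain gene myo-3, whose myosin occupies the middle of the thick filament, had 549, 481 and 467 CPM with CHX and 813, 864 and 713 CPM without it. All CHX libraries were lower, as for 553 of 1064 genes in the most abundant bin, where myo-3 lies. The fall was 0.68 on the log2 scale (value -0.68, edgeR adjusted p = 3.9e-05), and the call held under the cyclic loess scaling (-0.44, limma adjusted p = 0.0022). The paramyosin gene unc-15, which encodes the filament core, had 2007, 1857 and 1729 CPM with CHX and 2203, 2163 and 2032 CPM without it. These groups stood apart but closely, and the change of -0.19 was not called (95% interval -0.38 to -0.01, edgeR adjusted p = 0.0864). It was called without CHX replicate 1 (-0.25, edgeR adjusted p = 0.042) and without no CHX replicate 3 (-0.27, edgeR adjusted p = 0.0354), whereas the cyclic loess scaling gave 0.12 (limma adjusted p = 0.232).

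The myosin light chain genes fell as well. For mlc-3, the essential light chain gene, CPM values were 789, 682 and 866 with CHX and 1131, 1071 and 1055 without it (-0.48, edgeR adjusted p = 7.3e-04). The regulatory light chain genes mlc-1 and mlc-2 are close paralogs that lie 2529 bases apart on chromosome X and point away from each other. Reads of mlc-2 stood at 331, 332 and 343 CPM with CHX and 581, 572 and 513 CPM without it (-0.73, edgeR adjusted p = 7.5e-06). Reads of mlc-1 stood at 348, 382 and 388 CPM with CHX and 511, 512 and 433 CPM without it (-0.38, edgeR adjusted p = 0.0046). Every CHX library was lower for either gene, as for 553 of 1064 genes in the most abundant bin, where both lie. How reads that match both copies were assigned is not given in the sources used here, so the difference between the genes is uncertain. Summed as 1 feature, they fell by 0.56 on the log2 scale (value -0.56, edgeR adjusted p = 1.1e-04).

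**Figure D2:**
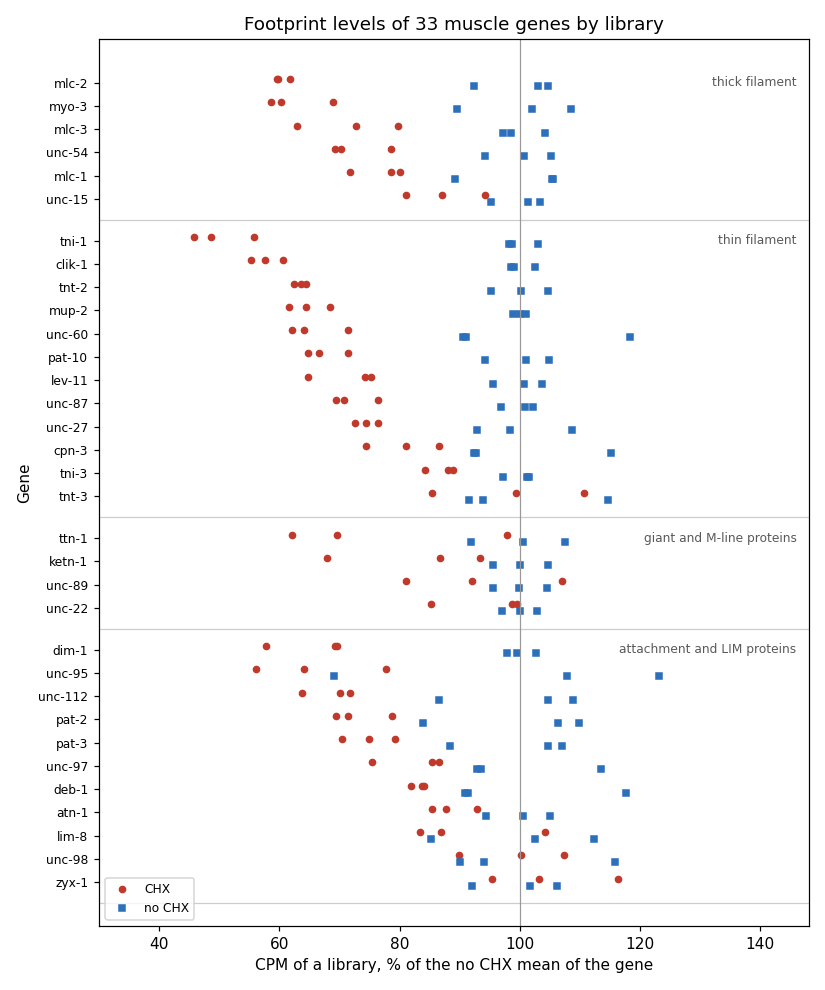
Each row is 1 of the 33 genes, and each point is the CPM of 1 library as a percentage of the gene's no CHX mean (red circles CHX, blue squares no CHX, 3 libraries each). In 25 genes all CHX points lie left of all no CHX points. The same was so for 24.7% of all genes tested and for 553 of 1064 genes in the most abundant bin. The points mix in the giant genes other than ketn-1, in tnt-3 and in 4 attachment genes.

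Of the 12 thin filament genes, 10 (83.3%) fell, with a list median of -0.53. In comparison, 20.0% of all genes tested and 45.2% of the most abundant bin were called lower. The cyclic loess scaling left 7 of the 12 called, with a median of -0.245. The tropomyosin gene lev-11, whose protein lies along the actin filament, had 1072, 923 and 1058 CPM with CHX and 1479, 1436 and 1363 CPM without it (-0.49, SE 0.090, edgeR adjusted p = 3.4e-04). The troponin C gene pat-10 encodes the calcium sensor of the filament. It had 961, 935 and 1029.6 CPM with CHX, against 1360.5, 1457 and 1513 CPM without it (-0.57, SE 0.088, edgeR adjusted p = 6.2e-05). All CHX libraries were below all no CHX libraries for both genes, as for 553 of 1064 genes in the most abundant bin, where both lie.

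Troponin I holds the filament in its off state, and its genes differed in how far they moved. The main body wall gene unc-27 had 877, 901 and 855 CPM with CHX and 1282, 1160 and 1096 CPM without it (-0.43, SE 0.090, edgeR adjusted p = 9.8e-04). The gene tni-1 had 117, 125 and 143 CPM with CHX, against 264, 253 and 251 CPM without it. Its mean of 128 ± 13.2 CPM with CHX stood against 256 ± 6.84 CPM without it (SD, n = 3 each), the largest fall among the 33 genes (log2 fold change -0.995, SE 0.107, edgeR adjusted p = 1.3e-06). In the abundance bin of tni-1, 3.29% of genes had a lower log2 fold change. That share was larger for every other muscle gene, for example 7.42% for clik-1, 27.2% for unc-54 and 42.3% for cpn-3. The third troponin I gene, tni-3, had 96.1, 101 and 100.5 CPM with CHX and 111, 116 and 116 CPM without it, and did not pass (-0.20, 95% interval -0.44 to 0.03, edgeR adjusted p = 0.159).

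Troponin T ties the complex to tropomyosin. The gene mup-2 had 691, 722 and 766 CPM with CHX and 1107, 1131 and 1121 CPM without it (-0.62, edgeR adjusted p = 1.9e-05). For tnt-2 the values were 758, 773 and 783 CPM with CHX and 1270.4, 1217 and 1155 CPM without it (-0.65, edgeR adjusted p = 1.1e-05). The weakly read tnt-3 overlapped between groups, at 47.5, 52.9 and 40.8 CPM with CHX and 43.8, 54.9 and 44.9 CPM without it (-0.03, 95% interval -0.36 to 0.30, edgeR adjusted p = 0.899). The whole of that interval lies above the value of mup-2.

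Of the genes for other actin-binding proteins, clik-1 changed most. This gene of calponin-like repeats had 747, 779 and 820.2 CPM with CHX and 1332, 1339.8 and 1386 CPM without it, a fall of 42.2% (-0.79, SE 0.086, edgeR adjusted p = 1.4e-06). The related unc-87, whose protein bundles actin, had 829.8, 845 and 912 CPM with CHX and 1222, 1158 and 1206 CPM without it (-0.47, edgeR adjusted p = 3.0e-04). The gene unc-60 encodes cofilins of muscle and of other tissues, which counts per gene do not tell apart, and it had 94.4, 91.5 and 105 CPM with CHX and 174, 134 and 134 CPM without it (-0.60, edgeR adjusted p = 0.0011). The calponin-family gene cpn-3 had 537, 462 and 502 CPM with CHX and 575, 573 and 714 CPM without it (-0.31, edgeR adjusted p = 0.0232). That last call ended without CHX replicate 2 (-0.25, edgeR adjusted p = 0.111), CHX replicate 3 (-0.31, edgeR adjusted p = 0.0611) or no CHX replicate 3 (-0.24, edgeR adjusted p = 0.0677).

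Among the 4 genes of giant and M-line proteins, unc-22 and unc-89 had values near 0, and ttn-1 and ketn-1 had values below 0 that just missed the threshold. No call was made by edgeR or DESeq2 and 1 by limma-voom, 2 had an unadjusted p under 0.05 with edgeR, and the list median was -0.19. The twitchin gene unc-22, for a kinase of the thick filament that tunes relaxation, had 935, 944 and 809 CPM with CHX and 949, 976 and 920.5 CPM without it (-0.08, 95% interval -0.27 to 0.11, edgeR adjusted p = 0.501). The obscurin-like gene unc-89, for an M-line protein, had 532, 457 and 403 CPM with CHX and 475, 519.6 and 496 CPM without it (-0.10, 95% interval -0.32 to 0.12, edgeR adjusted p = 0.474). The groups overlapped for both genes, and CHX replicate 1 had the highest unc-89 level of all 6 libraries. The cyclic loess scaling turned both signs, to 0.18 for unc-22 and 0.10 for unc-89, without a call, and gave a list median of 0.01.

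The titin-like gene ttn-1 had 230.2, 164 and 146.0 CPM with CHX and 216, 237 and 253 CPM without it. CHX replicate 1 lay among the no CHX libraries and the other CHX libraries lay below them (-0.39, edgeR adjusted p = 0.0512). The kettin gene ketn-1, for a protein of the dense body region, had 449, 417 and 327 CPM with CHX and 480.1, 502 and 459 CPM without it (-0.27, edgeR adjusted p = 0.0534). Without CHX replicate 1, ttn-1 (-0.60, edgeR adjusted p = 9.4e-04) and ketn-1 (-0.37, edgeR adjusted p = 0.018) were called lower. Without no CHX replicate 3, ketn-1 was called (-0.35, edgeR adjusted p = 0.0296). The difference between the giant genes and the other lists was not tested.

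These 4 genes are also the longest of the set, with genomic spans of 25992 to 81340 bases, introns included. Coding lengths were not used here. With the muscle genes left out, 11 genes of the most abundant bin had a span at least as long as the shortest of the 4, and 2 of the 11 were called lower, against 463 of the 1031 shorter genes. Their median log2 fold change was 0.08, against -0.23 for the shorter genes, a split chosen after the values of the giant genes were seen. Across the 33 muscle genes, Spearman's rho between log2 fold change and genomic span was 0.39, and across the 1064 genes of the most abundant bin it was 0.14. With mean CPM in place of span, rho was -0.37 across the 33 genes and -0.07 across that bin. Genes within a library share its depth and are not independent, and these values are descriptions only.

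Of the 11 genes for attachment and LIM proteins, 5 (45.5%) fell, against 20.0% of all genes tested. The share called lower was 45.2% in the most abundant bin and 32.0% in the second bin. The integrin genes, whose proteins span the muscle membrane, fell alike. The alpha chain gene pat-2 had 216, 245 and 222 CPM with CHX and 332, 342 and 262 CPM without it (-0.45, SE 0.112, edgeR adjusted p = 0.0035). The beta chain gene pat-3, which serves other tissues too, had 184, 174 and 164 CPM with CHX and 249, 243 and 205 CPM without it (-0.42, SE 0.108, edgeR adjusted p = 0.0048). For unc-112, the gene of the integrin-binding kindlin, the values were 136, 153 and 149 CPM with CHX and 223, 231 and 184 CPM without it (-0.54, SE 0.113, edgeR adjusted p = 9.1e-04). Groups did not overlap in any of the 3 genes, as was so in this direction for 24.7% of all genes tested. It was so for 553 of 1064 genes in the most abundant bin and 386 of 1063 in the second.

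The gene dim-1, for an immunoglobulin-repeat protein near the dense bodies, had 467, 390.4 and 469 CPM with CHX and 661, 671 and 693 CPM without it (-0.61, SE 0.096, edgeR adjusted p = 7.0e-05). Among these 11 genes it had the largest fall. The LIM domain gene unc-95 had 41.9, 47.9 and 58.1 CPM with CHX and 92.0, 80.6 and 51.6 CPM without it, so that no CHX replicate 3 lay among the CHX libraries. Its call (-0.59, edgeR adjusted p = 0.0333) ended without CHX replicate 1 (-0.48), CHX replicate 2 (-0.57), no CHX replicate 1 (-0.45) or no CHX replicate 2 (-0.58), with edgeR adjusted p from 0.0835 to 0.108.

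The dense body genes deb-1 and atn-1, of this list of 11, were not called. The vinculin gene deb-1 had 156, 152 and 155 CPM with CHX and 169, 218 and 169.5 CPM without it (-0.27, edgeR adjusted p = 0.0771). Leaving out either no CHX replicate 1 (-0.36, edgeR adjusted p = 0.0338) or no CHX replicate 3 (-0.37, edgeR adjusted p = 0.0174) gave a call. The alpha-actinin gene atn-1, for the protein that crosslinks thin filaments there, had 322, 304 and 296 CPM with CHX and 327, 349 and 364 CPM without it (-0.17, 95% interval -0.37 to 0.02, edgeR adjusted p = 0.146). All CHX libraries were lower for either gene, as for 24.7% of all genes tested. The gap was smaller than the range of the no CHX libraries, and the cyclic loess scaling put atn-1 at 0.00.

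Of the remaining attachment genes, unc-97, which encodes the LIM protein PINCH, had a log2 fold change of -0.27 (95% interval -0.56 to 0.02), and lim-8, for a LIM protein, one of -0.13 (-0.39 to 0.14). The zinc finger gene unc-98, for an M-line protein, had 43.0, 38.6 and 46.1 CPM with CHX and 38.7, 49.7 and 40.4 CPM without it (-0.01, edgeR adjusted p = 0.964). The zyxin gene zyx-1 had 116, 126 and 142 CPM with CHX, against 129, 124 and 112.3 CPM without it. Its log2 fold change of 0.07 was the only value above 0 among the 33 genes, although leaving out CHX replicate 3 gave -0.01 and leaving out no CHX replicate 3 gave -0.03, and its groups overlapped (95% interval -0.18 to 0.32, edgeR adjusted p = 0.655). The interval of unc-98, from -0.34 to 0.32, still reaches past the change of cpn-3, which was called.

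**Figure D3:**
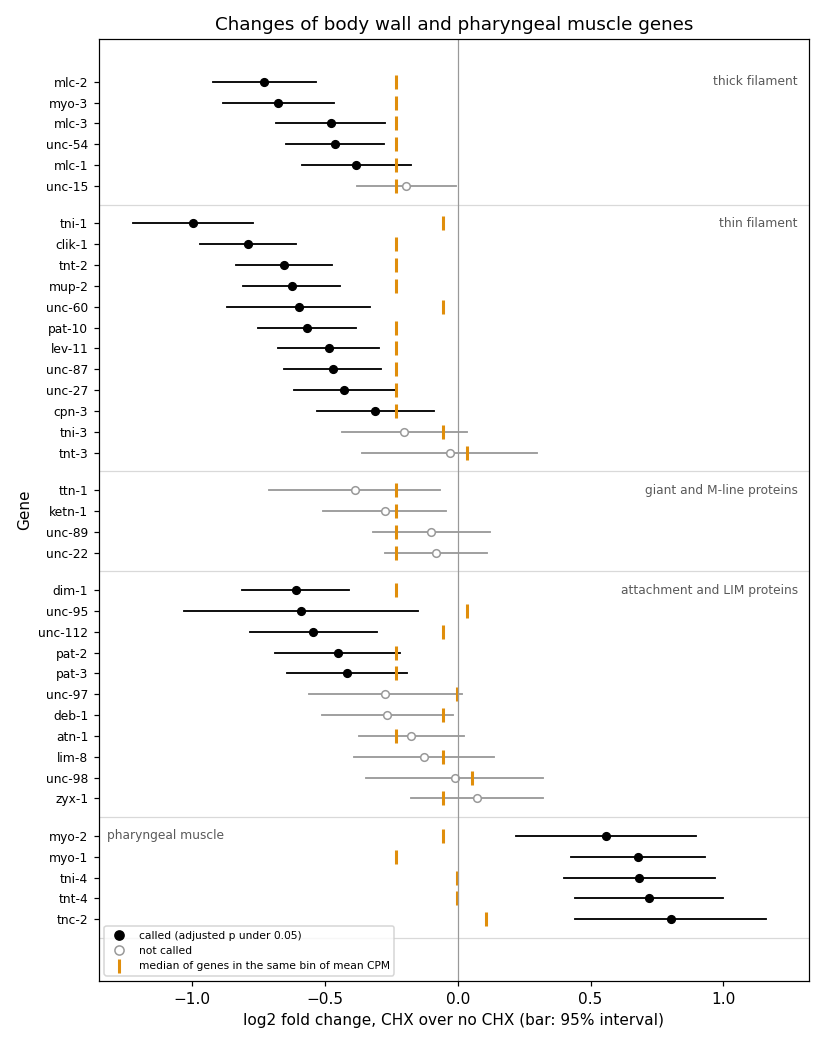
Points are log2 fold changes of CHX over no CHX with 95% intervals for the 33 body wall genes by list and for 5 pharyngeal muscle genes, filled where called. Orange ticks give the median of all genes in the same bin of mean CPM. Intervals are not adjusted for multiple tests, so those of unc-15, ttn-1, ketn-1 and deb-1 end below 0 without a call. The body wall genes reach down to -0.995 for tni-1 and the pharyngeal genes run from 0.56 to 0.80.

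Ratios of the reads of 2 genes within a library do not depend on scaling, and 12 such pairs were compared. With 3 libraries against 3, an exact two-sided permutation test cannot give a p under 0.10, and 6 pairs reached that value (adjusted over the 12 pairs, exact p = 0.2 each). The ratio of unc-54 to myo-3 reads was 9.06, 9.24 and 9.37 with CHX and 7.83, 7.70 and 8.37 without it. It was thus higher in every CHX library than in any no CHX library. For unc-54 to unc-15 it was 2.48, 2.39 and 2.53 with CHX and 2.89, 3.08 and 2.94 without it. Relative to unc-54, paramyosin reads were therefore higher with CHX.

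Among troponin genes, the ratio of tni-1 to unc-27 was 0.134, 0.138 and 0.167 with CHX and 0.206, 0.218 and 0.229 without it, a log2 difference of -0.58. The ratio of tni-3 to unc-27 moved the other way by 0.22, or by 0.14 without no CHX replicate 1. For tnt-3 over mup-2 the log2 difference was 0.60, and for clik-1 over unc-87 it was -0.32. In these pairs the groups did not overlap.

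The other 6 pairs overlapped between groups. Their partners include proteins that work together: tropomyosin and troponin C (lev-11 over pat-10, log2 difference 0.08), the integrin chains (pat-2 over pat-3, -0.03), both troponin T genes with many reads (tnt-2 over mup-2, -0.03), myosin heavy and essential light chains (unc-54 over mlc-3, 0.02), and alpha-actinin and vinculin (atn-1 over deb-1, 0.08). For the integrin pair the ratio was 1.17, 1.41 and 1.36 with CHX and 1.33, 1.41 and 1.27 without it. The ratio of unc-22 to ttn-1 had a log2 difference of 0.33, with CHX replicate 1 at 4.06 among the no CHX values of 4.39, 4.12 and 3.64, and the other CHX libraries at 5.77 and 5.54. Without CHX replicate 1 that difference was 0.49.

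The 33 genes together held 2.04%, 1.88% and 1.899% of all reads in CHX replicates 1 to 3, against 2.54%, 2.61% and 2.44% in no CHX replicates 1 to 3. Each CHX library was below each no CHX library. In the CHX libraries 24.0% of these reads lay on unc-54, against 24.2% in the no CHX libraries. The share of unc-15 was 9.72% with CHX and 8.16% without it, and that of clik-1 was 4.09% with CHX and 5.19% without it. Longer coding sequences hold more reads, so these shares are not levels per length.

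By list, thin filament genes held 0.697% ± 0.0215 of all reads with CHX and 0.980% ± 0.00357 without it (SD, n = 3 each). Thick filament genes held 0.855% ± 0.0602 with CHX and 1.10% ± 0.0628 without it. The giant genes held 0.221%, 0.199% and 0.169% in CHX replicates 1 to 3, against 0.204%, 0.219% and 0.206% in no CHX replicates 1 to 3, so that their groups overlapped.

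**Figure D4:**
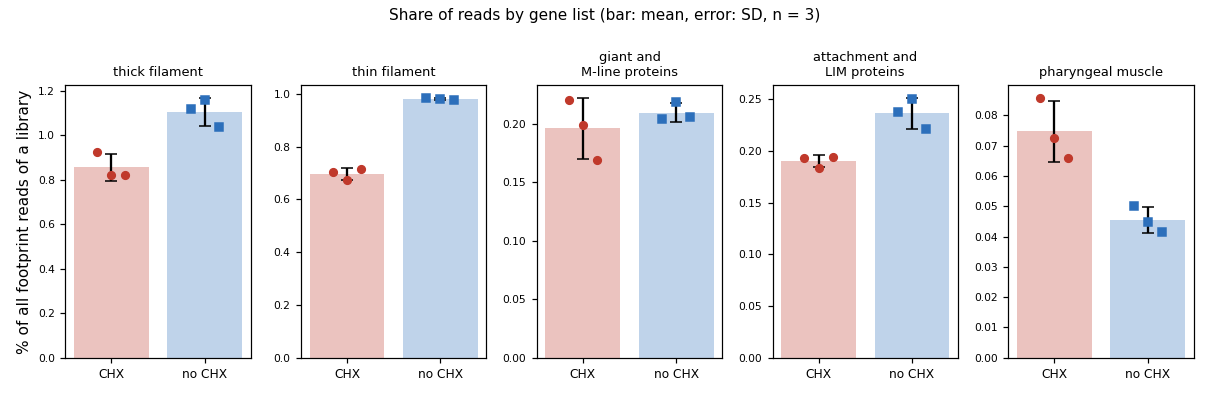
Bars give the mean share of all footprint reads held by each gene list in percent, with the SD over 3 libraries and a point for each library, CHX left and no CHX right. The groups are apart for the thick filament, thin filament, attachment and pharyngeal lists and overlap for the giant genes. The vertical scale differs between panels, and each starts at 0.

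Genes listed for pharyngeal muscle, which pumps food and is built from myosins and troponins of its own, moved the other way. All 5 were called higher, against 22.2% of all genes tested, and 0 of the 5 against a 1.5-fold change. The list was chosen with earlier results of these data known. The pharyngeal myosin heavy chain gene myo-1 had 301, 250.3 and 214 CPM with CHX and 162, 161 and 155 CPM without it (0.68, edgeR adjusted p = 2.1e-04). The other heavy chain gene, myo-2, had 289, 224 and 188 CPM with CHX and 185, 149 and 142 CPM without it (0.56, edgeR adjusted p = 0.0120). Leaving out no CHX replicate 2 (0.47, edgeR adjusted p = 0.0985) or no CHX replicate 3 (0.44, edgeR adjusted p = 0.129) ended that call. CHX replicate 1 was the highest library for both heavy chains.

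The pharyngeal troponin genes rose with little spread among the CHX libraries. For the troponin C gene tnc-2 there were 39.7, 41.1 and 39.3 CPM with CHX and 23.5, 24.6 and 20.8 CPM without it (0.80, edgeR adjusted p = 0.0011). The troponin T gene tnt-4 rose by 0.72 and the troponin I gene tni-4 by 0.68 on the log2 scale. All 5 pharyngeal genes stayed called with the cyclic loess scaling.

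Reads of body wall genes over those of their pharyngeal counterparts therefore fell in every library of the CHX group. These pairs were chosen after their values were seen and are given as a description. The ratio of pat-10 to tnc-2, both troponin C, was 24.2, 22.7 and 26.2 with CHX and 58.0, 59.3 and 72.8 without it. For unc-27 over tni-4 it was 9.81, 10.2 and 9.23 with CHX and 19.4, 22.1 and 21.7 without it. The log2 differences ran from -1.37 for pat-10 over tnc-2 to -1.01 for unc-54 over myo-2. The ratio of unc-54 to nmy-2, a non-muscle myosin heavy chain gene, was 7.23, 6.01 and 6.14 with CHX and 16.5, 16.4 and 14.5 without it.

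**Figure D5:**
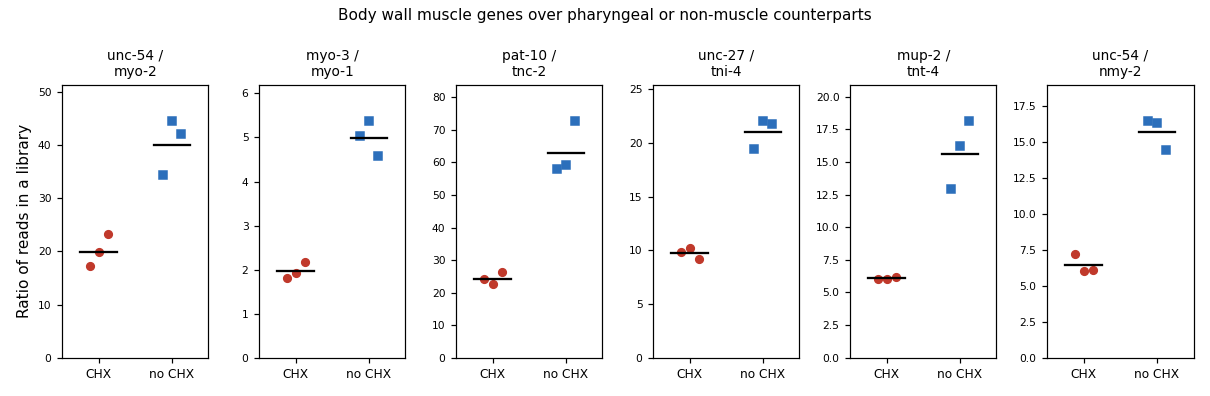
Each panel gives the ratio of reads of a body wall muscle gene to those of a pharyngeal or non-muscle counterpart in each library (points) with the geometric mean (line), CHX left and no CHX right, on an axis from 0. The CHX libraries lie below the no CHX libraries in all 6 panels.

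Of 23 further sarcomere and attachment genes, 7 (30.4%) fell and 3 (13.04%) rose, against 20.0% and 22.2% of all genes tested (median -0.21). The largest falls were those of alp-1, for a LIM protein of the Enigma family (105 ± 7.74 CPM with CHX and 197 ± 2.56 CPM without it, log2 fold change -0.91, edgeR adjusted p = 3.8e-06), and of rsu-1, for a partner of PINCH (-0.70). The tropomodulin gene unc-94 (0.44) and the paxillin gene pxl-1 (0.43) rose. DESeq2 called none of the 23 higher, with an adjusted p of 0.0683 for unc-94 and 0.15 for pxl-1. The unc-94 call also ended without no CHX replicate 2 (0.35), and the pxl-1 call without CHX replicate 3 (0.38), no CHX replicate 1 (0.41) or no CHX replicate 2 (0.29).

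Of 13 excitation and calcium genes tested, csq-1 was the only one called, and leaving out 1 library at a time gave 1 to 3 calls. This gene of calsequestrin, which stores calcium in the sarcoplasmic reticulum, had 173, 169 and 189 CPM with CHX and 416, 421 and 331 CPM without it (-1.14, SE 0.111, edgeR adjusted p = 4.1e-07). None of 7 dystrophin complex genes was called by edgeR with TMM factors and the filter, DESeq2 or limma-voom, and the smallest p was that of dys-1 (-0.38, edgeR adjusted p = 0.0519), which was called without no CHX replicate 3 (-0.56, edgeR adjusted p = 0.0043). With edgeR it was also called under median-of-ratios factors, upper-quartile factors, TMM without the 100 most abundant genes and no filter, and with limma under the cyclic loess scaling, at adjusted p from 0.0345 to 0.0463. In that list 1 gene had an unadjusted p under 0.05 with edgeR.

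Of 17 genes of the basement membrane and of epidermal attachment, 7 (41.2%) fell and 3 (17.6%) rose, against 20.0% and 22.2% of all genes tested. When 1 library was left out, 4 to 9 of the 17 were called lower. The nidogen gene nid-1 had 239 ± 9.18 CPM with CHX and 583 ± 41.4 CPM without it (SD, n = 3 each; -1.29), and vab-19 also fell (-0.73), while pxn-2 (1.09) and cle-1 (0.71) rose. Of the muscle transcription factor genes, unc-120 fell (-0.86, edgeR adjusted p = 0.0123), a call that ended without CHX replicate 3 (-0.74, edgeR adjusted p = 0.0584), and hlh-1 was not called (0.35, edgeR adjusted p = 0.473). The actin genes act-4 (-0.65) and act-2 (-0.57) fell together with act-5 (-0.51). As act-1 and act-3 were listed at 0 reads in all 6 libraries and actin copies are near-identical, these values may hold reads of several copies. Of 4 non-muscle myosin genes 2 (50%) rose, nmy-2 (0.83) and nmy-1 (0.33), against 22.2% of all genes tested. The other genes of that list were not called, and 1 of the 4 values was below 0.

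Of the markers of other tissues, all 6 oocyte genes rose, among them cav-1 (4.29) and cpg-2 (4.13), and their summed share was 0.241% to 0.275% of reads with CHX and 0.0116% to 0.0204% without it. Of 9 germline genes 6 (66.7%) fell, led by him-3 (-0.82) and glh-1 (-0.63), and 2 (22.2%) rose, glh-2 (0.76) and pgl-3 (0.34). Over all genes tested 20.0% were called lower and 22.2% higher. The pgl-3 call ended with DESeq2 (adjusted p = 0.102) and without CHX replicate 2, CHX replicate 3, no CHX replicate 1 or no CHX replicate 2. Of 8 neuron genes 2 rose, against 22.2% of all genes tested. They were unc-64 (0.46) and snb-1 (0.38), and neither was called by DESeq2, without no CHX replicate 1 or without no CHX replicate 3, nor was unc-64 without CHX replicate 3. The summed share of the neuron genes was 0.0344% to 0.0357% with CHX and 0.0269% to 0.0315% without it. Of 7 intestine genes 3 (42.9%) fell, led by elt-7 (-0.68) and ges-1 (-0.45), against 20.0% of all genes tested. When 1 library was left out, 1 to 4 of the 7 were called lower. The elt-7 call ended with DESeq2 (adjusted p = 0.0632) and without CHX replicate 2 (edgeR adjusted p = 0.0649). None of 6 epidermis genes was called by edgeR, DESeq2 or limma-voom, although ajm-1 was called higher by limma under the cyclic loess scaling (0.35) and lin-26 by edgeR without no CHX replicate 3 (0.97), and elt-1 had the smallest p (0.76, edgeR adjusted p = 0.0517) and 2 passed 0.05 before adjustment. No marker of these 5 lists was at 0 reads in any library. The part of these tissues in the muscle result was not tested.

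The 33 genes are spread over all 6 chromosomes, with 10 on X, 8 on I and 8 on V. The median log2 fold change of the 10 genes on X was -0.52 and that of the other 23 was -0.42, while all tested genes had medians of 0.06 on X and 0.03 elsewhere. After mlc-1 and mlc-2, the closest members were cpn-3 and unc-89, 47003 bases apart.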

How the data were processed

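Footprints were taken from 6 whole-worm libraries. Per the labels' protocols, ribosomes were pelleted through 34% sucrose and fragments of 26 to 34 nucleotides were cloned. The deposited table holds raw counts per gene over coding sequence, on WBcel235 per the file headers. DESeq2 is named by the submitters' processing notes. Aligner, strand and the treatment of multiple matches: not given in the sources used here.

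Counts were kept with filterByExpr (minimum count 10), TMM-scaled and tested in R 4.3.3 by edgeR 4.0.16, using glmQLFTest on a robust glmQLFit, with group as the only term and Benjamini-Hochberg adjustment over 10632 genes. Alternatives used DESeq2 1.42.0 and limma 3.58.1. The common biological coefficient of variation was 11.1%. In counts simulated for this comparison (10376 genes in the step), calls were made for 35.1% of genes changed 1.5-fold, for 79.5% at 2-fold, for 100% at 4-fold and for 0.147% of unchanged genes. The changed genes were drawn at random over all abundances. They numbered 74 at 1.5-fold, 73 at 2-fold and 49 at 4-fold, beside 10180 unchanged genes. In the data 2123 genes were called lower and 2364 higher, and the adjusted p depends on how many genes change. These shares therefore do not apply to the data, nor to the muscle genes, of which 22 lay in the most abundant bin. How often changes of these sizes are called in the data was not tested.

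The 33 members, the 4 role lists, the other 13 lists and the 12 pairs were chosen with earlier results of these data known. Named genes were all members and, of each other list, up to 2 called genes per direction with the largest change, or the gene with the smallest p; the other pharyngeal genes, hlh-1, act-5, ajm-1, lin-26 and the 6 further pairs were chosen after their values were seen. Levels per coding length, which had been planned, were not computed because the length column of the table spans introns.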

Additional observations from a re-analysis of the deposited data

How the results depend on the processing

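The count of muscle genes called lower (20 of 33) was between 18 and 23 under other size factors, other filters, DESeq2, limma-voom, a fit with the replicate number as a block (18) and the summing of mlc-1 with mlc-2 (19 of 32 features), and 14 with the cyclic loess scaling by abundance, which by construction removes a shift shared by genes of like abundance and moved the median to -0.21. Against a 1.5-fold change 2 genes, tni-1 and clik-1, were called, and over all genes 484 were lower and 913 higher, against 2123 and 2364 without that minimum. Leaving out 1 library at a time gave 18 to 22 called lower, 0 called higher in every case, a median of -0.52 (without no CHX replicate 3) to -0.41, and a log2 ratio of summed shares of -0.42 to -0.36. No muscle gene with a call changed sign under any of these alternatives. Same-numbered libraries did not deviate together (correlations of -0.11, -0.08 and -0.08 over 10632 genes), so the numbers were not taken as pairs, and the replicate block ended the calls of cpn-3 (-0.31, edgeR adjusted p = 0.0505) and unc-95 (-0.57, edgeR adjusted p = 0.0900). The cyclic loess scaling ended those of unc-54, mlc-1, mlc-3, lev-11, unc-27 and cpn-3. Giant genes called lower numbered 2 with median-of-ratios factors, 2 with TMM without the 100 most abundant genes, 2 without the filter, 1 with upper-quartile factors and 1 with limma-voom. All 5 pharyngeal genes lost their calls against a 1.5-fold change. Precision is limited by 3 libraries a group, and what depth adds to the width of the intervals was not tested.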
